A study of Mus musculus with 12 samples.

Results

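The response of mouse splenic B cells to interleukin-4 (IL-4) was compared between wild-type cells and cells lacking STAT6, gene by gene. The quantity examined was the interaction of genotype and IL-4: the log2 change with IL-4 in wild-type cells minus the log2 change with IL-4 in STAT6 knockout cells. A value of 1 means that the ratio of the IL-4 cells to the control cells was 2-fold higher in the wild type. All 12 arrays of the series entered, assigned by their titles to 4 groups of 3: WT_contr, WT_IL-4, STAT6_contr and STAT6_IL-4. The cells came from spleens of female BALB/c mice, 9 weeks old, and were purified by removal of the other cell types. In all 4 groups anti-CD40 antibody at 10 µg/ml plus LPS (bacterial lipopolysaccharide) at 2 µg/ml activated the cells over 4 days, and IL-4 at 25 ng/ml was present in both IL-4 groups. The controls without IL-4 were therefore activated B cells, and the knockout groups are labelled STAT6 ko. How the allele was made, and on which background it was kept, is not given in the sources used here. The samples are described as triplicates but not as coming from separate animals, so the p-values measure the spread among these samples, which may be technical. The number of arrays limits the precision, and in such bulk RNA fewer cells of a type and less RNA per cell cannot be told apart.

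IL-4 binds a receptor built from the IL-4 receptor alpha chain and the common gamma chain. JAK kinases attached to these chains phosphorylate the receptor, STAT6 docks there, is phosphorylated, pairs with a second STAT6 molecule and enters the nucleus to bind DNA. The same receptor also recruits insulin receptor substrate proteins, which act through phosphatidylinositol 3-kinase and need no STAT6. In activated B cells IL-4 is known for switching antibody class to IgG1 and IgE, for raising the low-affinity IgE receptor CD23 and MHC class II, and for keeping cells from becoming antibody-secreting plasma cells.

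Values are log2 signals relative to the 75th percentile of the same array, so 0 is the level of that percentile and probes of different genes are not compared in level. The 75th percentile lay between 296 and 356 intensity units on the 12 arrays, 40.7 to 44.0% of spots were well above background and none was saturated. A gene was called when the p-value of limma, adjusted by Benjamini-Hochberg over all 16498 genes tested, was under 0.05 and the change was at least 2-fold. All 3 Stat6 probes were well above background on all arrays, and the probe with the highest mean (mm9, chr10:127097689-127097748) read 3.11, 3.23 and 3.20 in WT_contr, 3.42, 3.38 and 3.29 in WT_IL-4, 1.13, 1.29 and 1.30 in STAT6_contr and 1.30, 1.38 and 1.59 in STAT6_IL-4. The knockout arrays lay below every wild-type array, and the interaction was -0.00 ± 0.11 (SE; adjusted p = 0.993, limma). The labels do not say which exons are missing, so a probe outside the deleted part checks nothing. Of the 9 B cell markers examined, Cd79a, Cd79b and Ms4a1 among them, all were measured, and their summed linear signal relative to the 75th percentile was 1664 to 1680 in WT_contr, 1767 to 1837 in WT_IL-4, 1526 to 1588 in STAT6_contr and 1460 to 1595 in STAT6_IL-4. Of the 9, 2 rose and 5 fell with IL-4 in the wild type at an adjusted p under 0.05 (limma), with a median of -0.39, 3 rose and 1 fell in the knockout, and the interaction was higher for 2 and lower for 5.

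By their scanner headers the arrays lay on 2 slides. One held the 6 wild-type arrays with knockout controls 1 and 2, the other held knockout control 3 with the knockout IL-4 arrays. The wild-type response therefore lies within a slide, while the knockout response and the interaction cross slides. With slide as a block the knockout response becomes the 3 knockout IL-4 arrays against knockout control 3 alone, since controls 1 and 2 then serve to estimate the slide difference. Every blocked value of the knockout response or the interaction thus rests on 1 control array, assumed to vary like the other arrays.

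IL-4 changed 2090 genes at least 2-fold in wild-type cells (12.7% of the genes tested), of which 943 rose (5.72%) and 1147 fell (6.95%), and 581 in knockout cells (3.52%), of which 130 rose (0.788%) and 451 fell (2.73%). The difference between the responses was itself called for 1756 genes (10.6%), with 926 higher (5.61%) and 830 lower (5.03%) in the wild-type response. These shares are the background for every count of 2-fold calls. At an adjusted p under 0.05 of any size the interaction passed for 44.8% of genes, the wild-type response for 57.2% and the knockout response for 42.2%. The 3 IL-4 arrays did not overlap the 3 controls for 69.2% of genes in the wild type and 46.5% in the knockout. The median over all genes was -0.04 for the wild-type response, 0.05 for the knockout response and -0.10 for the interaction. The split of the 1756 calls depended on the scaling: 52.7% were positive with the 75th percentile and 41.5% when arrays were scaled on their median, which moved the median interaction to -0.23. A fit with slide as a block called 1965 interactions, of which 1598 were among the 1756.

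**Figure D1:**
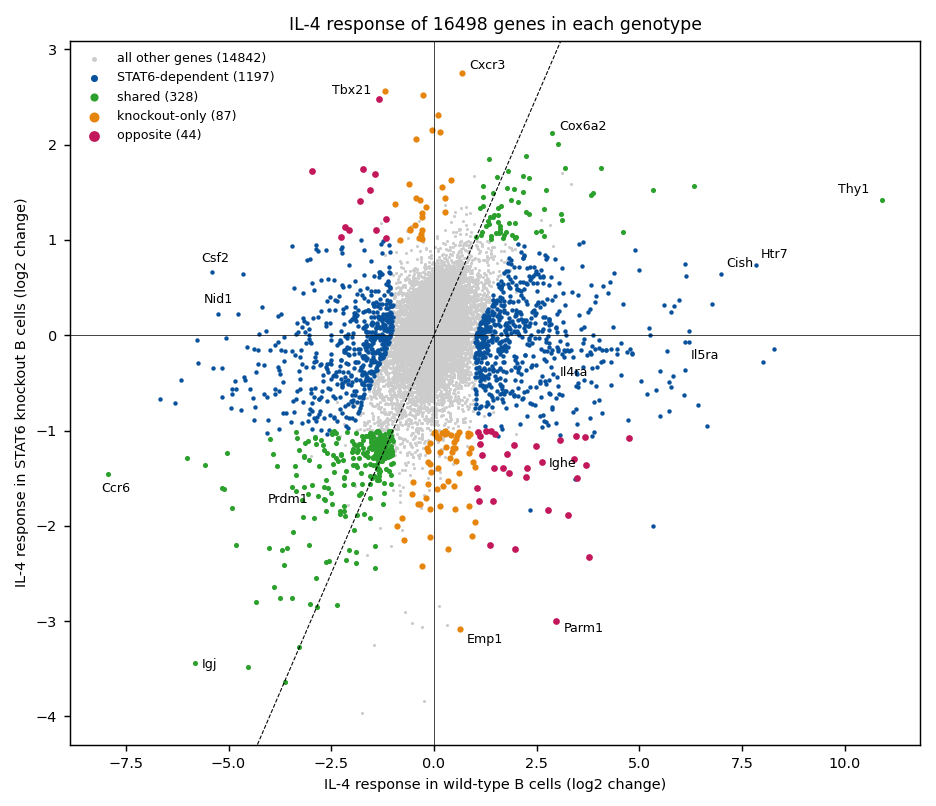
Each point is a gene, with the IL-4 response of wild-type cells (log2) on the horizontal axis and that of STAT6 knockout cells (log2) on the vertical axis, colored by response class. Most of the genes changed in wild-type cells lie along the horizontal line at 0, while 328 genes lie toward the diagonal (shared). Of the genes in the quadrants of opposed sign, 44 were called in both genotypes (opposite).

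The genes were sorted by the 3 tests into classes. A response was termed STAT6-dependent when it was called in the wild type, the difference was called in the same direction and the knockout response was not called: 631 genes rose and 566 fell in this way, which is 66.9% of the 943 rises and 49.3% of the 1147 falls. It was termed shared when both responses were called in the same direction (63 rises and 265 falls), and opposite when both were called with opposed signs (44 genes). It was termed knockout-only when the knockout response and the difference were called and the wild-type response was not (27 rises and 60 falls). In a further 521 genes the wild-type response was called but neither the knockout response nor the difference, so these were not assigned. The shared rises were 6.68% of the wild-type rises and 48.5% of the knockout rises, and the shared falls were 23.1% of the wild-type falls and 58.8% of the knockout falls. These responses come from separate arrays.

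Among the 631 STAT6-dependent rises the median response was 1.93 in the wild type and -0.07 in the knockout, and in the knockout the middle 50% of genes lay between -0.37 and 0.21. The 95% interval of the knockout response lay within 2-fold in either direction for 481 of them (76.2%), so for the rest a response of 2-fold in the knockout was not excluded by the spread. A change at an adjusted p under 0.05 but under 2-fold was found in the knockout in the same direction for 106 and in the opposed direction for 98. Of the 566 STAT6-dependent falls, with medians of -1.77 and -0.10, the interval lay within 2-fold for 457 (80.7%), and 166 genes fell and 87 rose in the knockout at that smaller size. In 120 of the 631 rises and 10 of the 566 falls no knockout array was well above background. The probes of these genes were kept through a wild-type group alone, and their knockout response was not measured. Of these classes, 577 of the 631 and 509 of the 566 genes stayed with slide as a block.

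The strongest STAT6-dependent rises included receptors and feedback inhibitors of cytokine signalling. Il5ra, the alpha chain of the IL-5 receptor, read 0.59, 0.79 and 0.60 in WT_contr, 6.80, 6.77 and 6.75 in WT_IL-4, 0.46, 0.45 and 0.27 in STAT6_contr and 0.37, 0.48 and 0.11 in STAT6_IL-4 (mm9, chr6:106660378-106660437). The WT_IL-4 arrays stood apart from the other 9, 69.3-fold above their controls, and both knockout groups overlapped. Its interaction was 6.19 ± 0.14 (adjusted p = 7.03e-10, limma). Cish, which encodes the feedback inhibitor CIS, read -0.87, -0.73 and -0.71 in WT_contr, 6.26, 6.19 and 6.22 in WT_IL-4, -0.35, -0.12 and 0.07 in STAT6_contr and 0.25, 0.39 and 0.87 in STAT6_IL-4 (mm9, chr9:107204196-107204255). It rose 127-fold in the wild type and 1.56-fold in the knockout, where controls and IL-4 arrays were separate (adjusted p = 0.00668, limma), but against the single control of the same slide the knockout response was 0.43 with an adjusted p of 0.13. Socs2, another member of this inhibitor family, rose 62.4-fold in the wild type and 1.29-fold in the knockout.

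Of the 8 members of the SOCS family tested, 5 rose with IL-4 in the wild type and 6 in the knockout, and the interaction was higher for 4 and lower for 2, at an adjusted p under 0.05 of any size. Over all genes the interaction was higher at that threshold for 16.4% and lower for 28.3%, the wild-type response rose for 26.4% and fell for 30.8%, and the knockout response rose for 27.5% and fell for 14.7%. Socs1 changed by 2.09 in the wild type and 0.56 in the knockout. Socs3 changed by 2.64 in the wild type and 0.05 in the knockout (adjusted p = 0.84, limma), and its knockout controls without IL-4 lay above the wild-type controls by 1.05.

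Il4ra, the IL-4 receptor alpha chain itself, read -2.69, -2.82 and -2.77 in WT_contr, 0.12, 0.06 and 0.34 in WT_IL-4, -2.39, -2.88 and -1.85 in STAT6_contr and -2.62, -2.60 and -2.62 in STAT6_IL-4 (mm9, chr7:132712550-132712609). It rose 7.63-fold in the wild type, and in the knockout the IL-4 arrays lay inside the range of the controls (interaction 3.17 ± 0.28, adjusted p = 1.01e-05, limma). Fcer2a, which encodes CD23, was 6.33, 6.35 and 6.43 in WT_contr, 8.01, 7.97 and 7.94 in WT_IL-4, 6.24, 6.17 and 6.10 in STAT6_contr and 6.80, 6.78 and 6.82 in STAT6_IL-4 (mm9, chr8:3682343-3682402). Both genotypes rose without overlap, by 1.60 in the wild type and 0.63 in the knockout (adjusted p = 9.19e-06, limma). The difference of 0.97 ± 0.07 (adjusted p = 2.33e-06, limma) fell just short of 2-fold, so Fcer2a was in neither the STAT6-dependent nor the shared class.

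Over 16 genes of the IL-4 receptor and its signalling chain, 4 rose and 6 fell in the wild type, 2 rose and 3 fell in the knockout, and the interaction was higher for 3 and lower for 4, with a median of -0.02. Over 18 genes taken here as STAT6 targets, Gata3, Gfi1 and Irf4 among them, 16 rose and none fell in the wild type. In the knockout 10 rose and 3 fell, and the interaction was higher for 12 and lower for 1. Not every member is established as a STAT6 target in B cells. Their median was 1.29 in the wild type and 0.31 in the knockout. This list was written with results of these data known and is not independent evidence of direction.

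Other STAT6-dependent rises were Htr7, a serotonin receptor, Nfil3, a basic leucine zipper transcription factor, and Gnb4, a G-protein beta subunit. Htr7 read -3.22, -3.06 and -3.13 in WT_contr, 4.73, 4.68 and 4.67 in WT_IL-4, -3.57, -3.92 and -4.27 in STAT6_contr and -2.82, -3.49 and -3.23 in STAT6_IL-4 (mm9, chr19:36033339-36033398). Its wild-type rise was 228-fold, while the knockout controls were not well above background and the knockout rise was at least 1.52-fold. Another Htr7 probe gave an interaction of 3.73 where this one gave 7.09. Nfil3 read 2.73, 2.78 and 2.76 in WT_contr, 6.33, 6.36 and 6.38 in WT_IL-4, 2.78, 3.06 and 3.32 in STAT6_contr and 3.65, 3.71 and 3.97 in STAT6_IL-4. It rose in both genotypes without overlap, 12.1-fold and 1.65-fold, with a difference of 2.87 ± 0.17 (adjusted p = 5.9e-07, limma). Gnb4 rose 27.6-fold in the wild type and changed by -0.14 in the knockout (adjusted p = 0.185, limma). Gzma, the cytotoxic protease granzyme A, was well above background in WT_IL-4 alone, at least 70.8-fold above WT_contr.

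RefSeq promoter sequence (GRCm38.p6) was matched by symbol for 9675 of the 16498 genes, from 250 bases before to 50 bases after a start. It was searched for the STAT motif in both spacings: TTC and GAA with any 4 bases between them, the form STAT6 is known to prefer, and TTC and GAA with any 3 bases between them, which other STAT proteins bind. Each motif is its own reverse complement, so a match counts for both strands, and the 2 forms cannot start at the same base but may otherwise overlap. The 4-base spacing was in the window of 6.51% of all matched genes, in 9.28% of the 431 matched STAT6-dependent rises and in 7.51% of the 333 matched falls. The 3-base spacing was in 8.4%, 9.05% and 8.41% of the same sets. Among genes with a single window the shares of the 4-base spacing were 5.34%, 7.79% and 5.7%. Over all windows it was also in 10.8% of the 65 matched shared falls without a called difference. It was in 11.4% of the 35 that fell further in the wild type. The share was 7.14% of the 28 matched shared rises without a called difference and 2.7% of the 37 matched knockout-only falls. A share above that of all genes was thus not particular to the STAT6-dependent rises. No test was made of these shares, and a match is a description of letters, not of a site in use.

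The windows of 6 of the genes are shown because they carry the motif next to the largest or best-known responses; Il5ra and Cd5l were the only ones with the longer spacing among the 18 STAT6-dependent genes with a window that were fixed by name or named for the size of their difference, and Cish, Socs3, Bcl6 and Fcer2a were chosen after the matches had been seen. Capitals mark each match, and sequences run 5′ to 3′ on the strand of the gene. Il5ra (chr6:106748991-106749020, minus strand) and Cish (chr9:107296654-107296683, plus strand) are given as 30 bases around matches that lie after the start. The others are the 250 bases before the start: Cd5l at chr3:87357631-87357880 (plus), Fcer2a at chr8:3690862-3691111 (minus), Socs3 at chr11:117969367-117969616 (minus) and Bcl6 at chr16:23981284-23981533 (minus). Fcer2a had 3 windows and Bcl6 had 2, and the window with the most matches was taken.
Il5ra: cagaaaatgtTTCAATAGAAaaaagaggaa
Cish: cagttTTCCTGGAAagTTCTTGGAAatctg
Cd5l: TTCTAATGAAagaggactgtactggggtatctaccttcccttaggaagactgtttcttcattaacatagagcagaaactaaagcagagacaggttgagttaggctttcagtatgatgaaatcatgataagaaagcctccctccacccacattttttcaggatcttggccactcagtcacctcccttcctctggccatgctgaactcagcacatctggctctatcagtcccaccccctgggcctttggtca
Fcer2a: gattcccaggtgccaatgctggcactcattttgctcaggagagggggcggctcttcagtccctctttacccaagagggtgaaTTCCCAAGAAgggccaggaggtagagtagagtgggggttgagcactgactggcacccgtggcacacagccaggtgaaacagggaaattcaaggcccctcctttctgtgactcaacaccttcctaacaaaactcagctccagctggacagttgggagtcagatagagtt
Socs3: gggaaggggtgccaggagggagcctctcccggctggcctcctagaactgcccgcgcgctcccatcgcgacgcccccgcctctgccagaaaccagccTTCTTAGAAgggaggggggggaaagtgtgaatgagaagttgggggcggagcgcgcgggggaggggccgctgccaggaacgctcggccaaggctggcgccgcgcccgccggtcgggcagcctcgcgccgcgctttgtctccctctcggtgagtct
Bcl6: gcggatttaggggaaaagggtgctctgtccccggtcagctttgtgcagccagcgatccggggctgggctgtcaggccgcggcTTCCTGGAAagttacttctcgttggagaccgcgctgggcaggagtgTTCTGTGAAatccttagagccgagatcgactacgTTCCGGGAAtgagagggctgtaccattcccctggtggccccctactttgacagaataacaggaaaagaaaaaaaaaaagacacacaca
The Il5ra, Cd5l and Fcer2a sequences hold the 4-base spacer, and those of Cish (2 matches), Socs3 (1) and Bcl6 (3) hold the 3-base spacer. Il5ra, Cish, Socs3 and Bcl6 were STAT6-dependent rises, Cd5l was a STAT6-dependent fall and Fcer2a rose in both genotypes.

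**Figure D2:**
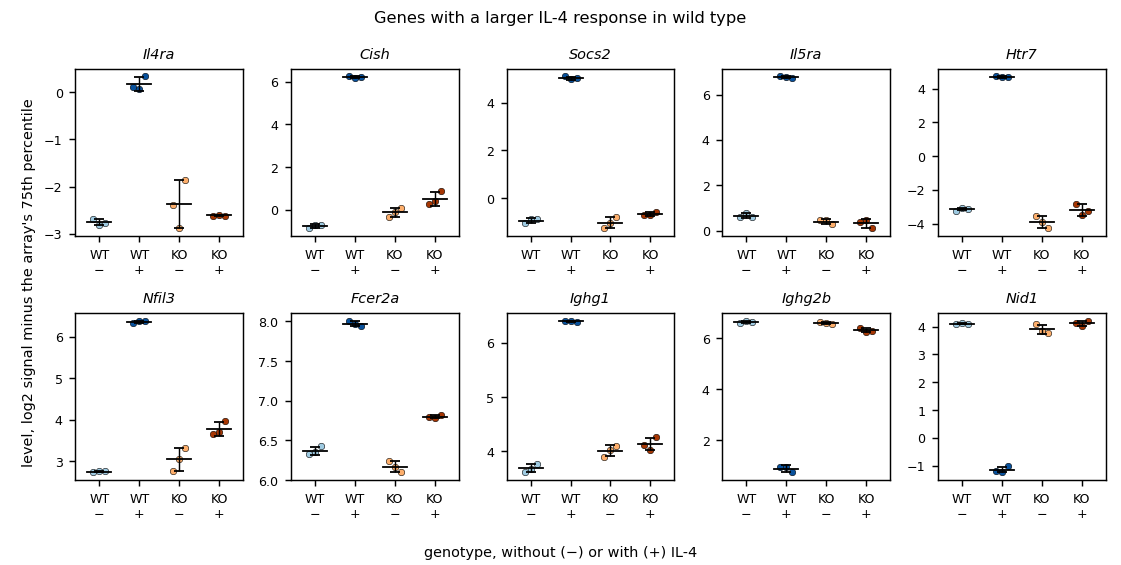
The log2 signal minus the 75th percentile of the array is plotted for each of the 3 arrays of the 4 groups, 1 panel per gene, with a horizontal line at the group mean and an error bar of 1 SD. The WT_IL-4 points stand above all others in Il4ra, Cish, Socs2, Il5ra, Htr7, Nfil3, Fcer2a and Ighg1 and below all others in Ighg2b and Nid1, and in Fcer2a and Nfil3 the knockout cells rise too.

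The antibody heavy-chain genes responded in 3 ways. Ighg1 (mm9, chr12:114567263-114567322), the constant region of IgG1, read 3.61, 3.67 and 3.76 in WT_contr, 6.41, 6.40 and 6.39 in WT_IL-4, 3.90, 4.03 and 4.10 in STAT6_contr and 4.11, 4.03 and 4.26 in STAT6_IL-4. It rose 6.57-fold in the wild type, and both knockout groups overlapped, with a change of 0.13 (95% interval -0.03 to 0.28). The difference was 2.59 ± 0.10 (adjusted p = 2.65e-08, limma), and another Ighg1 probe gave 1.38. Ighe (mm9, chr12:114509504-114509563), the constant region of IgE, read 0.72, 0.73 and 0.67 in WT_contr, 3.40, 3.33 and 3.28 in WT_IL-4, 0.02, 0.23 and 0.33 in STAT6_contr and -1.33, -1.10 and -0.97 in STAT6_IL-4. It rose 6.2-fold in the wild type and was 2.51-fold lower with IL-4 in the knockout, with no overlap in either genotype (interaction 3.96 ± 0.14, adjusted p = 1.33e-08, limma). Ighg2b, the IgG2b constant region, read 6.58, 6.69 and 6.64 in WT_contr, 0.96, 0.97 and 0.74 in WT_IL-4, 6.64, 6.60 and 6.57 in STAT6_contr and 6.40, 6.26 and 6.29 in STAT6_IL-4. It fell 53.7-fold in the wild type and 1.22-fold in the knockout (interaction -5.46 ± 0.10, adjusted p = 2.94e-10, limma).

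Of 9 constant-region genes, 2 rose and 7 fell in the wild type, while none rose and 7 fell in the knockout. The probe named Ighg2c fell by 5.16 and 0.34. No probe was named Ighg2a, so which of the pair this reading belongs to was not determined. Ighg3, picked with its value known, fell by 2.88 and 0.90. These genes are close relatives, and probes may share signal among them. Over 28 genes of class-switch recombination and its DNA repair, the interaction was higher for 4 and lower for 15, and 14 rose and 4 fell in the knockout, or 9 and 4 with quantile normalisation and 17 and 1 with median scaling. Atm, the kinase that senses DNA breaks, changed by -0.70 in the wild type and 0.53 in the knockout.

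Large STAT6-dependent falls included secreted and surface proteins. Csf2, the growth factor GM-CSF, read 1.41, 1.41 and 1.39 in WT_contr, -3.84, -3.97 and -4.15 in WT_IL-4, 1.01, 0.77 and 0.62 in STAT6_contr and 1.47, 1.53 and 1.41 in STAT6_IL-4. It was not well above background in any WT_IL-4 array, which makes it at least 37.4-fold lower there, and it rose by 0.67 in the knockout, where the groups did not overlap (adjusted p = 0.000492, limma). Nid1, the basement membrane protein nidogen 1, read 4.10, 4.13 and 4.10 in WT_contr, -1.18, -1.22 and -1.02 in WT_IL-4, 4.08, 3.82 and 3.78 in STAT6_contr and 4.14, 4.03 and 4.19 in STAT6_IL-4. It fell 38-fold in the wild type, with no call in the knockout (0.22, adjusted p = 0.0559, limma). Ccl5, a chemokine for T cells, fell 18.3-fold in the wild type and rose 1.23-fold in the knockout. Id3, an inhibitor of E proteins, fell by 4.14 and 0.32, Cr2, the complement receptor CD21, by 3.45 and by 0.17 without passing the test in the knockout (adjusted p = 0.285, limma).

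Markers of other cell types were also examined, as sums and one by one. The summed signal of 7 macrophage and monocyte markers was 63.7 to 66.4 in WT_contr, 26.9 to 27.8 in WT_IL-4, 62.8 to 66.8 in STAT6_contr and 64.0 to 66.6 in STAT6_IL-4. Of the 7, 2 rose and 3 fell in the wild type, with a median of -0.12. Their interaction was higher for 3 and lower for 2, with a median of 0.41, so the lower sum was not a fall of all members. Mpeg1 fell 13.2-fold and Sirpa rose 4.19-fold, and Lyz2 was not well above background in any whole group. The summed signal of 4 of 8 cytotoxic-cell markers was 5.46 to 6.11 in WT_contr and 9.10 to 10.9 in WT_IL-4, against 4.94 to 5.40 and 4.13 to 4.47 in the knockout groups, with Ncr1, Klrb1c, Klrk1 and Klrd1 not kept. Of these 4 kept markers, 2 rose and 2 fell in the wild type. Gzma, one of them, was kept only through WT_IL-4, so this sum does not show a rise of the markers as a set. For T cells the sums were 33.2 to 35.4, 32.7 to 34.0, 35.6 to 40.9 and 32.0 to 33.6 in the same order, over 6 markers and without Cd8a, Cd8b1 and Cd247. For dendritic cells they were 113 to 136, 134 to 142, 139 to 148 and 131 to 152 over 5 markers, without Xcr1 and Clec9a. Of the 5, 4 rose and 1 fell in the wild type, with a median of 1.35, 2 rose in the knockout, the interaction was higher for 4 and lower for 1, and 3 were STAT6-dependent. Of the mast cell, granulocyte and erythroid markers, a single one each was kept. The part of other cells in the results was not tested.

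Among the gene lists, the one with the most members in the shared class held genes of amino acid supply and the stress response. Over 26 genes of the ATF4 response and serine synthesis, 24 rose in the wild type and 23 in the knockout, and none fell in either, against 26.4% and 27.5% of all genes rising. The medians were 1.05 and 1.06, and 10 of the 26 were in the shared class. The interaction was higher for 7 and lower for 3, with a median of 0.14, and for 11 and 1 with slide as a block. Cth, the enzyme cystathionine gamma-lyase that makes cysteine, read 2.41, 2.64 and 2.62 in WT_contr, 4.86, 4.84 and 4.69 in WT_IL-4, 2.44, 2.60 and 2.84 in STAT6_contr and 4.55, 4.43 and 4.52 in STAT6_IL-4. The IL-4 arrays of both genotypes lay above all controls, 4.73-fold and 3.67-fold, and the difference of 0.37 (95% interval 0.04 to 0.69, adjusted p = 0.0636, limma) did not pass the test, though with slide as a block, against 1 knockout control, it was 0.58 with an adjusted p of 0.0097.

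Asns, asparagine synthetase, changed by 1.34 and 1.17, Slc3a2, a chain of amino acid transporters, by 1.03 and 1.03, and Psph, an enzyme of serine synthesis, by 1.18 and 1.08. They were picked with their values known. Psat1, which acts one step before Psph, rose more in the knockout than in the wild type (1.11 against 0.63, difference -0.48, adjusted p = 0.000401, limma). Other members differed the other way. Atf5, a transcription factor of the stress response, rose by 2.75 in the wild type and 0.82 in the knockout (difference 1.93 ± 0.13, adjusted p = 1.64e-06, limma), and Vldlr, a lipoprotein receptor, changed by 2.79 and 0.05. Beyond the list, Aldh1l2, a mitochondrial folate enzyme, rose 4.52-fold and 2.83-fold, and Gpt2, a mitochondrial alanine transaminase, 3.84-fold and 2.9-fold.

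Cox6a2, a subunit of cytochrome c oxidase, read 4.59, 4.76 and 4.75 in WT_contr, 7.60, 7.59 and 7.49 in WT_IL-4, 4.17, 4.15 and 4.37 in STAT6_contr and 6.57, 6.33 and 6.15 in STAT6_IL-4. The IL-4 arrays of each genotype lay above its controls, 7.28-fold in the wild type and 4.34-fold in the knockout. The rise was larger in the wild type, by 0.65 to 0.85 when single arrays were left out. That difference passed the test each time (highest adjusted p = 0.00723, limma) but was under 2-fold. Of the 63 shared rises, 49 had no called difference (medians 1.62 and 1.26) and 14 rose further in the wild type (3.47 and 1.35). None rose further in the knockout. With slide as a block 28 of the 63 stayed shared and 36 genes in all were in the class.

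Thy1, a surface glycoprotein known from T cells, rose very unequally. It read -4.22, -3.97 and -4.22 in WT_contr, 6.77, 6.82 and 6.71 in WT_IL-4, -3.05, -2.76 and -3.42 in STAT6_contr and -1.58, -1.42 and -1.98 in STAT6_IL-4. In the wild type, where no control was well above background, the rise was at least 1530-fold, and in the knockout it was 2.67-fold. The groups did not overlap in either genotype, and the responses differed (adjusted p = 1.56e-09, limma), by an amount that the dim wild-type controls leave without an exact size.

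Among the plasma cell genes that fell in both genotypes, Prdm1, the regulator Blimp-1, read 2.02, 1.88 and 1.99 in WT_contr, -0.95, -0.77 and -0.83 in WT_IL-4, 1.77, 1.68 and 1.54 in STAT6_contr and -0.13, -0.02 and 0.08 in STAT6_IL-4. It fell 7.03-fold and 3.22-fold without overlap, and the fall was larger in the wild type by 1.13 ± 0.11 (adjusted p = 2.23e-05, limma). Igj, the J chain that joins IgM and IgA units (now Jchain), read 6.35, 6.42 and 6.40 in WT_contr, 0.45, 0.61 and 0.64 in WT_IL-4, 6.65, 6.35 and 6.02 in STAT6_contr and 3.03, 2.92 and 2.77 in STAT6_IL-4. Both genotypes fell without overlap, 56.5-fold and 10.8-fold. Bhlha15, a transcription factor of secretory cells, fell 4.85-fold and 3.6-fold, and its difference of -0.43 ± 0.12 (adjusted p = 0.0124, limma) was under 2-fold.

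Not all genes of the plasma cell did so. Over 19 of them, 8 rose and 6 fell in the wild type, 4 rose and 9 fell in the knockout, and the median interaction was 0.06, which turned to -0.07 when arrays were scaled on their median. Xbp1, the transcription factor of the secretory pathway, read 6.61, 6.67 and 6.60 in WT_contr, 7.52, 7.48 and 7.49 in WT_IL-4, 6.66, 6.49 and 6.42 in STAT6_contr and 5.66, 5.60 and 5.59 in STAT6_IL-4. It rose 1.83-fold in the wild type and fell 1.87-fold in the knockout, without overlap, with a difference of 1.77 ± 0.08 (adjusted p = 1.19e-07, limma). Irf4, needed for plasma cells and class switching, changed alike in size, by 0.29 and 0.23 (difference 0.06, 95% interval -0.13 to 0.25, adjusted p = 0.59, limma).

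The 265 shared falls comprised 208 without a called difference (medians -1.42 and -1.25) and 57 that fell further in the wild type (-3.15 and -1.29), and none fell further in the knockout. Over the 257 shared genes of either direction without a called difference, the 95% interval of the difference lay within 2-fold for 171. In the fit blocked on slide 197 of the 265 stayed in the class. Cd5, a surface inhibitor of antigen receptor signalling, fell 4.57-fold and 3.59-fold. Prg2, which encodes a granule protein known from eosinophils, fell 11-fold and 6.79-fold. Ccr6, the receptor of the chemokine CCL20, read 6.82, 6.78 and 6.75 in WT_contr, -1.25, -1.24 and -0.92 in WT_IL-4, 7.0, 6.97 and 6.82 in STAT6_contr and 5.50, 5.47 and 5.46 in STAT6_IL-4. It fell 243-fold in the wild type and 2.73-fold in the knockout, without overlap in either (interaction -6.47 ± 0.12, adjusted p = 2.94e-10, limma).

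**Figure D3:**
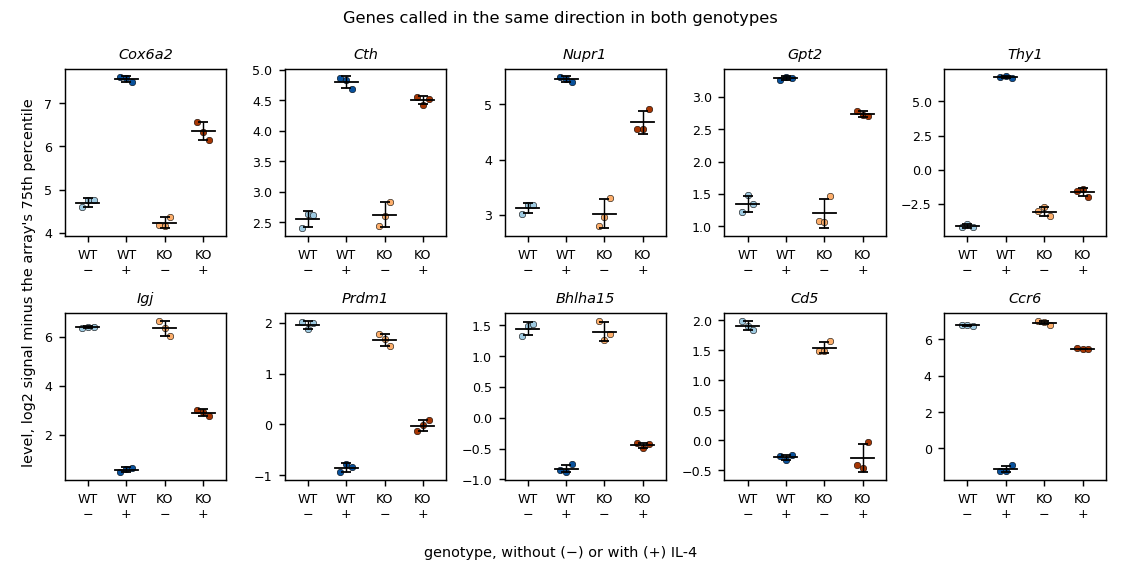
The log2 signal minus the 75th percentile of the array is plotted for each of the 3 arrays of the 4 groups, 1 panel per gene, with a horizontal line at the group mean and an error bar of 1 SD. Cox6a2, Cth, Nupr1, Gpt2 and Thy1 rise with IL-4 in both genotypes, Igj, Prdm1, Bhlha15, Cd5 and Ccr6 fall in both, and the genotypes end far apart in Thy1 and Ccr6.

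Opposite responses were called for 44 genes: 32 rose in the wild type and fell in the knockout (medians 1.95 and -1.34), and 12 fell in the wild type and rose in the knockout (-1.64 and 1.31). Only 4 of the 12, and 21 of the 32, had signals clear of background in 3 or more groups. The medians, above all those of the 12, therefore rest in part on dim signals and are not exact sizes. At an adjusted p under 0.05 of any size, 1107 genes (6.71%) had responses of opposed sign, 340 with the wild type rising and 767 with it falling, and 3465 (21%) had responses of the same sign. Of the 44, 31 stayed opposite with slide as a block, 9 with normexp background correction and 7 in the authors' deposited table. In all, 9 genes were opposite with normexp and 8 in that table.

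Slamf9, a member of the SLAM receptor family, read 2.32, 2.39 and 2.35 in WT_contr, 0.86, 0.82 and 0.73 in WT_IL-4, 2.38, 2.29 and 2.62 in STAT6_contr and 3.94, 3.91 and 4.00 in STAT6_IL-4. It fell 2.93-fold in the wild type and rose 2.87-fold in the knockout, without overlap, from controls that overlapped (interaction -3.07 ± 0.11, adjusted p = 1.53e-08, limma). Tbx21, which encodes T-bet, the factor known for directing switching to IgG2a, read -4.07, -4.29 and -4.51 in WT_contr, -5.85, -5.32 and -5.69 in WT_IL-4, -4.25, -2.75 and -2.95 in STAT6_contr and -1.04, -0.78 and -0.69 in STAT6_IL-4. None of the wild-type arrays was well above background, so its wild-type fall has no measured size, while in the knockout it was well above background in 2 of 3 controls and in all IL-4 arrays and rose 5.56-fold without overlap. Phf11b and Phf11d, related members of one family whose signals may not be separable, fell by 2.16 and 2.07 in the wild type and rose by 1.13 and 1.11 in the knockout. Rsad2, the antiviral enzyme viperin, was 1.22 higher in the knockout with IL-4, but with slide as a block this was 1.15 with an adjusted p of 0.1.

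Cd28, a costimulatory receptor of T cells, read -2.47, -2.25 and -2.27 in WT_contr, -0.57, -0.47 and -0.42 in WT_IL-4, -2.09, -2.38 and -2.48 in STAT6_contr and -3.90, -3.80 and -3.58 in STAT6_IL-4. The controls overlapped, and IL-4 moved the genotypes apart, by 1.84 and -1.44 (interaction 3.28 ± 0.16, adjusted p = 1.28e-07, limma). Parm1, a mucin-like membrane protein, read 0.19, 0.14 and 0.24 in WT_contr, 3.20, 3.15 and 3.15 in WT_IL-4, -0.74, -1.27 and -1.77 in STAT6_contr and -3.80, -4.33 and -4.66 in STAT6_IL-4. It rose 7.88-fold in the wild type and was lower with IL-4 in the knockout, without overlap in either. Of the knockout IL-4 arrays 1 of 3 was well above background, so the size of that fall rests on dim arrays. Ndrg2 had the largest interaction of the class, 6.09 ± 0.92, but its knockout controls ran from -1.29 to 1.00, 2.70 above the wild-type controls on average. The controls of both genotypes thus already differed there, whereas those of Slamf9 and Cd28 did not stand apart.

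**Figure D4:**
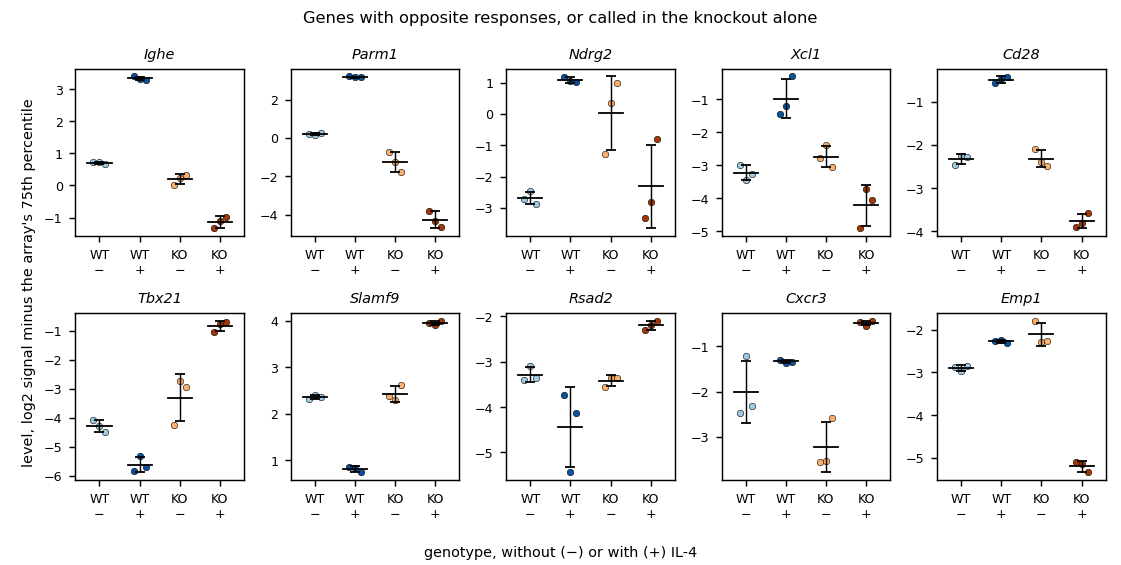
The log2 signal minus the 75th percentile of the array is plotted for each of the 3 arrays of the 4 groups, 1 panel per gene, with a horizontal line at the group mean and an error bar of 1 SD. Ighe, Parm1, Ndrg2, Xcl1 and Cd28 rise with IL-4 in wild-type cells and fall in knockout cells, Tbx21, Slamf9 and Rsad2 move the other way, and Cxcr3 rises and Emp1 falls in the knockout cells, with the knockout points of Ndrg2 spread most widely.

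In 87 genes the knockout response and the difference were called and the wild-type response was not. The 27 rises had medians of -0.30 in the wild type and 1.38 in the knockout, and the 60 falls 0.27 and -1.32. With slide as a block 12 of the 27 and 50 of the 60 stayed in the class, which then held 122 falls. The number of knockout-only falls was 35 without knockout control 3 and 114 without knockout IL-4 array 3, 22 with normexp and 21 in the authors' deposited table, and the rises numbered 11 and 10 in the latter pair. Cxcr3, a chemokine receptor of the type 1 response, read -2.49, -1.21 and -2.32 in WT_contr, -1.29, -1.37 and -1.34 in WT_IL-4, -3.57, -3.55 and -2.59 in STAT6_contr and -0.46, -0.54 and -0.44 in STAT6_IL-4. It rose 6.75-fold in the knockout without overlap, and the wild-type groups overlapped (0.67, adjusted p = 0.102, limma). The knockout control on the slide of the knockout IL-4 arrays read -2.59, above the others at -3.57 and -3.55. Against that control alone the rise was smaller than 6.75-fold. Irg1, the enzyme that makes itaconate (now Acod1), read -2.13, -1.76 and -1.61 in WT_contr, -2.08, -2.43 and -2.30 in WT_IL-4, -2.39, -2.76 and -3.21 in STAT6_contr and -0.83, -0.72 and -0.64 in STAT6_IL-4. It rose 4.17-fold in the knockout without overlap (interaction -2.50 ± 0.28, adjusted p = 5.62e-05, limma), and the wild-type groups overlapped.

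Among the knockout-only falls, Emp1, an epithelial membrane protein, read -2.87, -2.97 and -2.84 in WT_contr, -2.26, -2.24 and -2.31 in WT_IL-4, -1.80, -2.29 and -2.26 in STAT6_contr and -5.09, -5.15 and -5.34 in STAT6_IL-4. It was not well above background with IL-4 in the knockout, at least 3.74-fold lower, and rose 1.54-fold in the wild type. Rgs1 and Rgs16, which shorten G-protein signals, changed in the same manner: Rgs1 rose by 0.51 in the wild type and fell by 1.82 in the knockout, and Rgs16 rose by 0.93 and was at least 2.93-fold lower. Fos, an immediate early transcription factor, was 4.34-fold lower in the knockout and changed by -0.10 in the wild type (adjusted p = 0.719, limma).

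The interferon-stimulated genes differed in one direction. Of 39 tested, none had a higher and 35 a lower interaction. In the wild type 36 fell and none rose, and in the knockout 18 rose and 10 fell, with medians of -1.23 and 0.23. The knockout counts were 11 and 5 with slide as a block and 21 and 2 with median scaling. For 17 of them the responses were of opposed sign, each at an adjusted p under 0.05. Ifit1, an antiviral RNA-binding protein, read 1.25, 1.35 and 1.43 in WT_contr, -1.34, -1.26 and -1.22 in WT_IL-4, 0.72, 0.84 and 0.82 in STAT6_contr and 1.64, 1.65 and 1.77 in STAT6_IL-4. It fell 6.14-fold in the wild type and rose 1.86-fold in the knockout, without overlap (interaction -3.52 ± 0.09, adjusted p = 1.39e-09, limma). Of 16 interferon-inducible GTPases, 11 fell and none rose in the wild type, 7 rose and 1 fell in the knockout, and the interaction was lower for 13. Tgtp2, one of these GTPases, fell 8-fold in the wild type and changed by -0.08 in the knockout (adjusted p = 0.281, limma).

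MHC class II genes ran the other way. Of 14, the interaction was higher for 10 and lower for 1, and for 6 and 1 when arrays were scaled on their median. In the wild type 5 rose and 3 fell, and in the knockout none rose and 10 fell. H2-DMa, a chain of the peptide-loading molecule, read 5.47, 5.58 and 5.62 in WT_contr, 6.46, 6.48 and 6.43 in WT_IL-4, 5.48, 5.49 and 5.49 in STAT6_contr and 5.15, 5.07 and 5.02 in STAT6_IL-4. It rose by 0.91 in the wild type and fell by 0.41 in the knockout, without overlap, with a difference of 1.31 ± 0.07 (adjusted p = 3.53e-07, limma). H2-Aa, a class II alpha chain picked with its value known, changed by 0.19 and -0.73.

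Costimulatory and SLAM molecules were mixed. Of 21, the interaction was higher for 6 and lower for 11. Cd80, a ligand of CD28, read 3.96, 3.95 and 3.94 in WT_contr, 2.19, 2.20 and 2.17 in WT_IL-4, 3.92, 3.75 and 3.77 in STAT6_contr and 4.71, 4.77 and 4.95 in STAT6_IL-4. It fell 3.4-fold in the wild type and rose by 0.997 (log2) in the knockout, without overlap. That rise was just short of 2-fold, so Cd80 was not in the opposite class. Icosl, the ligand of ICOS, fell 10.8-fold in the wild type and 1.62-fold in the knockout. Of 24 genes of the mature B cell, the interaction was higher for 3 and lower for 16. In the wild type 5 rose and 16 fell. In the knockout 7 rose and 8 fell, or 9 and 2 with median scaling and 5 and 11 in the authors' deposited table, so no direction held there. Of 28 lineage transcription factors the interaction was higher for 8 and lower for 14. Bcl6, the repressor of the germinal centre, rose by 1.14 in the wild type and fell by 0.42 in the knockout, and Egr2, a zinc finger factor, rose by 2.37 and fell by 0.34. Zbtb32, a repressor known from plasmablasts and memory cells, fell by 2.75 in the wild type and rose by 0.58 in the knockout.

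Cell cycle genes rose in the knockout, and mitosis genes also in the wild type. Of 30 mitosis genes, 23 rose in the wild type and 28 in the knockout, with medians of 0.33 and 0.64, and the interaction was lower for 8 (26.7%, near the 28.3% of all genes) and higher for none. Of 31 DNA replication genes, 8 rose and 4 fell in the wild type and 28 rose in the knockout, with medians of 0.02 and 0.44, and the interaction was lower for 22 (71%). The 8 rises in the wild type are a share like that of all genes. Bub1b, a kinase of the spindle checkpoint, changed by 0.09 in the wild type (adjusted p = 0.202, limma) and rose by 0.90 in the knockout. Uhrf1, which keeps DNA methylation through replication, read 5.34, 5.47 and 5.53 in WT_contr, 4.92, 4.94 and 4.98 in WT_IL-4, 5.36, 5.24 and 5.04 in STAT6_contr and 5.72, 5.76 and 5.54 in STAT6_IL-4. It fell by 0.50 in the wild type and rose by 0.46 in the knockout, without overlap.

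Cholesterol synthesis fell in the wild type: of 24 genes, 22 fell and none rose, with a median of -0.60. In the knockout 9 fell and 2 rose, with a median of -0.11, and the number that fell there ran from 2 with median scaling and 3 with slide as a block to 16 with quantile normalisation and 18 in the authors' deposited table. The interaction was lower for 18 and higher for none. Dhcr7, the last enzyme of the pathway, read 1.93, 1.90 and 2.08 in WT_contr, 1.02, 1.04 and 1.07 in WT_IL-4, 1.93, 1.85 and 1.88 in STAT6_contr and 1.97, 1.92 and 1.88 in STAT6_IL-4. The 3 WT_IL-4 arrays stood below the other 9, and the difference was -0.97 ± 0.08 (adjusted p = 4.51e-06, limma).

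Glycolysis and hypoxia genes gave results that depended on which knockout arrays were used. Of 28, 14 fell and none rose in the knockout, 2 rose and 1 fell in the wild type, and the interaction was higher for 6 (21.4%, against 16.4% of all genes), with a median of 0.69. That median was 0.42 without knockout IL-4 array 1, 1.13 without knockout IL-4 array 3 and 1.05 with slide as a block. Bnip3, a mitophagy receptor raised in hypoxia, read 4.42, 4.19 and 4.09 in WT_contr, 5.14, 5.04 and 5.09 in WT_IL-4, 6.08, 6.93 and 7.26 in STAT6_contr and 3.77, 4.40 and 6.71 in STAT6_IL-4. Knockout IL-4 array 3 lay inside the range of the knockout controls, and the knockout controls were above the wild-type controls by 2.53. Vegfa, the vascular growth factor, rose by 2.65 in the wild type, while in the knockout its change of 0.55 did not pass the test (adjusted p = 0.107, limma).

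**Figure D5:**
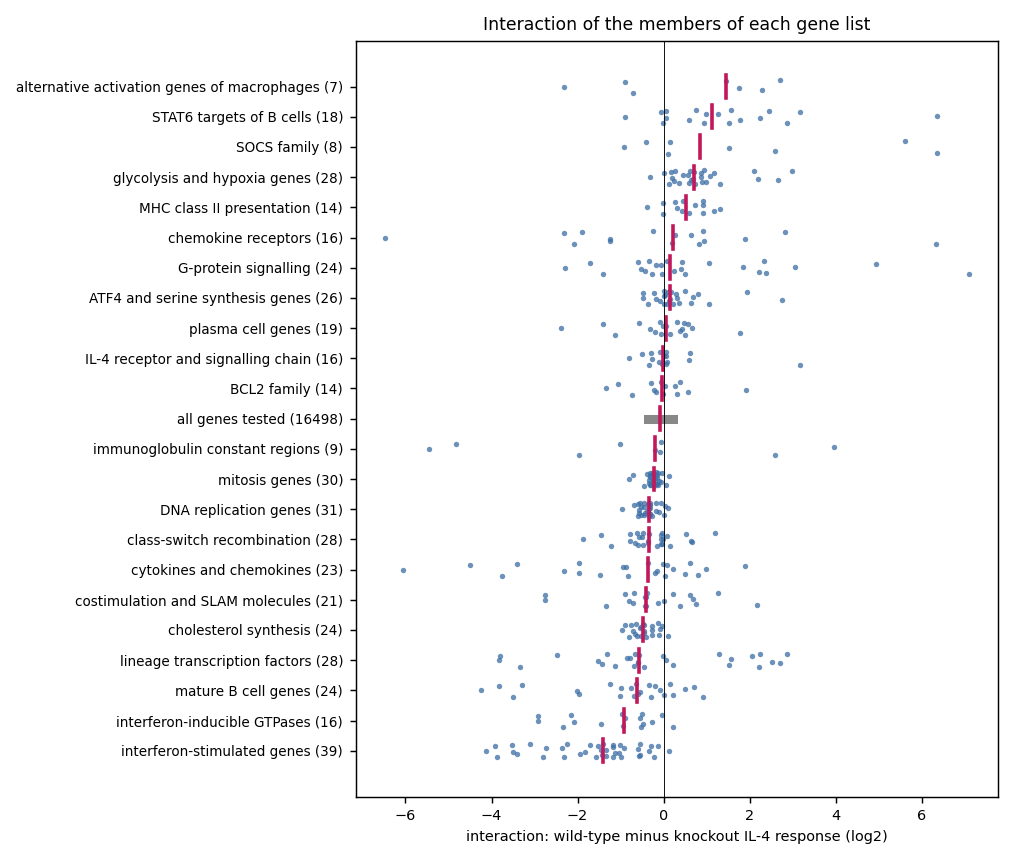
Each point is a tested member of a gene list, placed by its interaction (wild-type minus knockout IL-4 response, log2), with a red bar at the median of the list and the number of members beside its name; the grey bar spans the middle 50% of all 16498 genes. Interferon-stimulated genes lie farthest to the left, with a median of -1.41, and the ATF4 and serine synthesis genes center near 0, with a median of 0.14.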

How the data were processed

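RNA of the 12 samples was labelled with Cy3 and hybridised to Agilent 1-colour arrays (positions in mm9). The deposited scanner files give a processed intensity for each spot which, per the file headers, Feature Extraction 10.7.3.1 corrected for background, putting a surrogate where a spot did not exceed it; arrays were not normalised against each other. The authors also deposited log2 values, quantile normalised per the first line of that file, used here as an alternative. The members and gene lists were chosen with earlier results of these data known.

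The log2 of the processed intensity minus the array's 75th percentile over 59305 non-control spots was averaged per probe (55681 probes, 122 to 196 outlier spots left out per array). Probes were kept (22940) when every array of 1 group or more exceeded background clearly, and each gene (16498) was read from its brightest kept probe. Surrogates can distort folds of dim genes, so "at least" folds raise each dim array to its lowest signal well above background. Gene names of 1849 spots differ between the slides' design versions. Constant-region genes were named from probe descriptions.

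Group means were fitted with limma 3.58.1 (R 4.3.3, data.table version 1.17.8, jsonlite 2.0.0) over all 12 arrays. Figures used matplotlib 3.10.9, pandas 2.3.3 and numpy 2.4.6 (Python 3.11.15). On simulated data for the interaction over 16498 genes, 91 of 100 changes of log2 1.5 and 93 of 100 of log2 2 were recovered, with 3 false calls. The named genes follow a rule: fixed genes, those with the largest interaction or response in each class, and for every list the 4 members (or fewer) whose interaction had the lowest adjusted p (173 genes). Mx1, Ccr4, Ccr9, Ighg3, Slc3a2, Psph, Asns, H2-Aa, Irs2 and Klf2 were picked with their values known. Alternatives covered scaling, background, filter, probe choice, slide, replicate number, fold minimum and leaving out each array. Not every gene named by this rule is reported here.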

Additional observations from a re-analysis of the deposited data

Results flagged for a closer look

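The IL-4 responses of the genotypes differed, by the test of the interaction itself, for 1756 genes, and in 44 genes the responses were called with opposed signs. Among the genes named by rule, the interaction (log2) of those that rose in the wild type and fell in the knockout was 6.09 for Ndrg2, 5.98 for Parm1, 5.15 for Efna5, 4.99 for Fzd7, 4.62 for Kdelr3, 4.21 for Gm13889, 3.96 for Ighe, 3.73 for Xcl1 and 3.28 for Cd28. Of these, Efna5 and Fzd7 were not well above background in WT_contr or STAT6_IL-4, and their folds are bounds: at least 2.95-fold and 2.56-fold in the wild type, and at least 1.18-fold and 1.14-fold in the knockout. In Kdelr3 no STAT6_IL-4 array, and in Parm1 and Xcl1 1 of 3, was well above background. Among genes whose fitted response was negative in the wild type and positive in the knockout, it was -2.37 for Rsad2, -3.07 for Slamf9, -3.18 for Phf11d, -3.20 for AI607873 (now Ifi207), -3.30 for Phf11b, -3.48 for Rtn4rl1, -3.80 for Tbx21 and -4.68 for Steap4. Tbx21 was not well above background on any wild-type array, and Rsad2, Steap4, AI607873 and Rtn4rl1 on none of the WT_IL-4 arrays, so these values rest in part on background and are not exact sizes. With slide as a block, against 1 knockout control, the knockout rise of Rtn4rl1 was 0.78 with an adjusted p of 0.12 (limma). Groups of 3 arrays are too small for a test of outlying samples.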

How the results depend on the processing

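The counts are given in the order: interaction, wild-type and knockout calls, then STAT6-dependent rises and falls, shared rises and falls, opposite, knockout-only rises and falls. They were 1756 (926 higher, 830 lower), 2090, 581, 631, 566, 63, 265, 44, 27 and 60. With normexp background correction they were 1032 (603 and 429), 1182, 227, 410, 298, 30, 106, 9, 11 and 22. In the authors' deposited table they were 1053 (408 lower), 1262, 261, 453, 292, 24, 135, 8, 10 and 21. With probes well above background on all arrays they were 1161 (534 lower), 1354, 360, 408, 359, 43, 155, 21, 15 and 37, where fewer genes were tested. With no fold minimum they were 7388 (2712 and 4676), 9430, 6970, 1347, 1996, 2074, 1391, 1107, 1038 and 318, and with a minimum of 1.5-fold 3539 (1606 and 1933), 4014, 1786, 1027, 1012, 306, 585, 168, 139 and 186. Testing against 1.5-fold gave 24 opposite genes and 15 and 24 knockout-only rises and falls. Median scaling gave 101 shared rises and 42 and 38 knockout-only rises and falls, and quantile normalisation 38 knockout-only falls. With slide as a block there were 36 shared rises and 122 knockout-only falls, and within slides 38 and 123. The cause was not tested where none is named. The counts of the remaining settings (no filter, mean of probes, other variance settings, median scaling over kept probes, chosen after seeing the data) stayed within 1.5 times.

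Leaving out each array gave 35 knockout-only falls without STAT6_contr 3 and 114 without STAT6_IL-4 3, and 1652 to 1927 interaction calls. The other counts moved by less than 1.5 times.

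Samples of the same replicate number did not deviate together (r from -0.24 to 0.39, over 0.1 in 2 of 18 pairs), so the numbers were not taken to pair them. With the number as a block 1747 interactions were called, of which 1732 were among the 1756.

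Of 4336 recomputed interactions of 173 named genes, 4236 were counted as unchanged, 77 lost an adjusted p under 0.05, 22 gained it and 1 reversed. The reversal was another probe of Pfkp, which gave -0.34 (adjusted p = 0.421, limma). A change of sign counted as a reversal only where either value passed that threshold. The 4236 therefore include interactions near 0 that changed sign, such as Stat6, from -0.06 to 0.08 when single arrays were left out. The scaling moved the share of positive interaction calls from 52.7% to 41.5% (median scaling), 48.9% (quantile), 57.5% (median of kept probes), 58.4% (normexp) and 61.3% (authors' table). Differences of genes not well above background in a group rest on dim signals and are not exact sizes.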

Other observations

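Chemokine receptors split by receptor. Of 16, the interaction was higher for 7 and lower for 6, with a median of 0.22 that turned to -0.02 with quantile normalisation. Ccr4, the receptor of CCL17 and CCL22, was well above background in WT_IL-4 alone, so its rise has no exact size, and Ccr9, which guides cells to the gut, was lower with IL-4 in both genotypes, by 2.06 and 2.26. Gpr183, which steers B cells within the follicle, rose by 1.84 in the wild type and changed by -0.06 in the knockout. Klf2, a transcription factor of lymphocyte trafficking, rose by 2.11 in the wild type and fell by 0.41 in the knockout.

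Of 23 cytokines and chemokines, the interaction was higher for 6 and lower for 12. Ltb, lymphotoxin beta, fell by 2.79 in the wild type and 0.83 in the knockout. Of 14 members of the BCL2 family it was higher for 4 and lower for 5: Bik, which promotes cell death, rose by 2.72 and 0.80, and Bmf, which also does, fell by 2.03 and 0.69. Of 24 genes of G-protein signalling it was higher for 10 and lower for 6, with S1pr3, a receptor of sphingosine 1-phosphate, changing by 2.74 and -0.07. Of 7 genes known from alternatively activated macrophages it was higher for 4 and lower for 3. Irs2, the insulin receptor substrate that IL-4 receptors engage without STAT6, was lower with IL-4 in both genotypes, by 0.46 in the wild type and 1.06 in the knockout. Mx1, an antiviral GTPase, was 4.09 lower on the log2 scale with IL-4 in the wild type and changed by 0.04 in the knockout (adjusted p = 0.89, limma).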
